A study of Arundinella anomala and Arundinella fluviatilis and Arundinella hirta with 8 samples.

Results

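The leaf transcripts of *Arundinella fluviatilis*, a C4 grass, were set against those of *Arundinella anomala* and *Arundinella pubescens*, congeners whose libraries listed a similar number of genes. The table was summed to 26274 genes, of which 16856 were above 0 in all 3 libraries. A gene was taken as set apart where its level in *A. fluviatilis*, on the scale of log2(FPKM + 1), lay at least 2 units (a fold of 4) above or below both other libraries. This rule gave 601 genes, 240 of them higher and 361 lower in *A. fluviatilis*. FPKM is the number of fragments scaled by sequence length and by library size.

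Each species was represented by 1 library of whole mature leaves from wild-type plants, taken from leaf number 3 of plants kept at 22 °C with 16 h of light and 8 h of dark. The labels name no treatment and no line, and they do not say whether plants were pooled. The series holds 8 such libraries, and the other 5 came from *Arundinella hirta*, *Arundinella nepalensis*, *Bothriochloa ischaemum*, *Capillipedium parviflorum* and *Imperata cylindrica*. No species has a second library, so no difference below carries a test or an error, and a difference between species cannot be told apart from one between plants or libraries. Read counts are not part of the table, so depth is unknown. *A. fluviatilis*, *A. anomala* and *A. pubescens* listed 20388, 20468 and 20607 genes above 0. In bulk leaves, fewer cells of a type and less RNA per cell cannot be told apart.

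In a C4 leaf, carbonic anhydrase supplies bicarbonate that PEP carboxylase fixes into acids in the mesophyll. These move to inner cells, where decarboxylating enzymes release the CO2 beside Rubisco, and pyruvate orthophosphate dikinase restores PEP. Transporters in the chloroplast envelope carry the intermediates. *Arundinella* is known for distinctive cells, strands of bundle sheath-like cells that lie away from the veins. The files give maize gene models with no names, so the enzymes below were named from general knowledge of maize, which the files cannot check. Rubisco small subunit (GRMZM2G113033), a marker of green leaf, was at 2359 FPKM in *A. fluviatilis*, against 1380 in *A. anomala* and 3209 in *A. pubescens*, so all 3 libraries carried it at a high level.

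The 240 higher genes were 1.42% of the genes compared and the 361 lower genes 2.14%. Both shares follow from the rule itself. The median gene was lower in *A. fluviatilis*, with a difference of −0.22 log2 units from *A. anomala* and −0.15 from *A. pubescens*, and the balance of directions moved with this shift. With libraries scaled by the median of ratios, 336 genes were higher and 273 lower, so the lower genes no longer outnumbered the higher ones. With quantile normalization the numbers were 280 and 279. Scaling to the same sum per library left 243 higher and 381 lower genes. Which direction held more genes thus depended on the scaling.

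**Figure D1:**
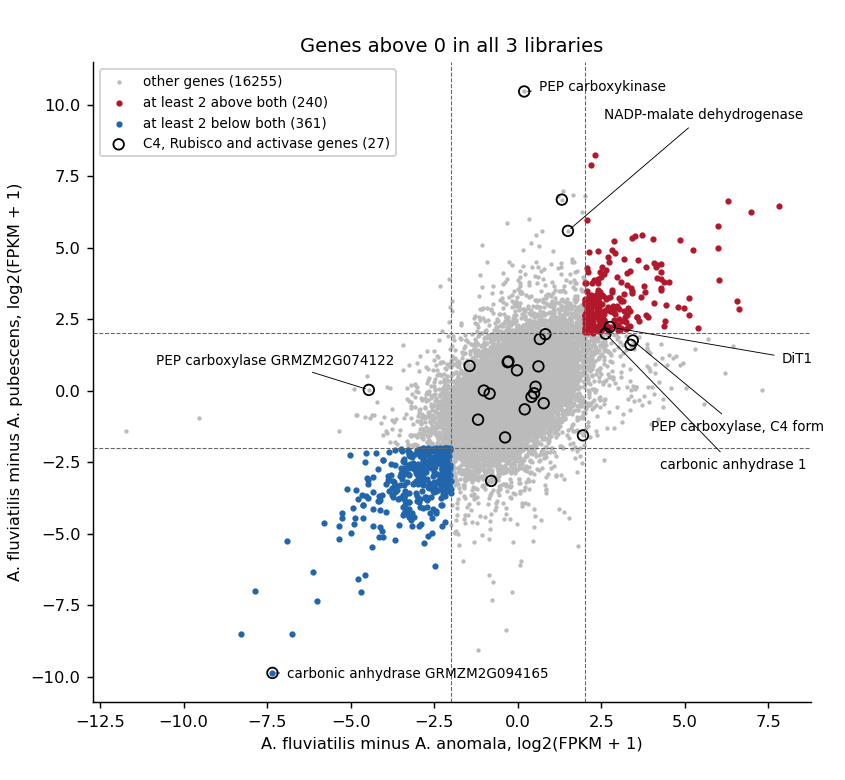
Difference of each gene between *A. fluviatilis* and *A. anomala* (x axis) and between *A. fluviatilis* and *A. pubescens* (y axis), both on log2(FPKM + 1), for 16856 genes above 0 in all 3 libraries. Red and blue points are the 240 higher and 361 lower genes, dashed lines mark 2 units, and open circles are 27 genes of the C4 lists, of which DiT1 lies in the red corner and carbonic anhydrase GRMZM2G094165 in the blue one.

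The same rule was applied with each congener in the place of *A. fluviatilis*. It set 601 genes apart in *A. fluviatilis* (3.57%), against 590 for *A. pubescens* (3.5%) and 269 for *A. anomala* (1.6%). The higher genes were 39.9% of those set apart for *A. fluviatilis*, 53.4% for *A. pubescens* and 56.1% for *A. anomala*. Under the median of ratios the higher share in *A. anomala* was 42.1%. The 3 counts rest on the same 3 libraries. The count for *A. fluviatilis* was thus 2.23 times that for *A. anomala*, and the count for *A. pubescens* 2.19 times. These ratios were smaller, at 1.28 and 1.69, when genes above 0 in at least 1 of the 3 libraries were counted, and at 1.59 and 1.6 with a distance of 1 log2 unit. Spearman's rho over the 16856 genes, which are not independent replicates, was 0.81 between *A. fluviatilis* and *A. anomala*, 0.74 between *A. fluviatilis* and *A. pubescens* and 0.79 between *A. anomala* and *A. pubescens*.

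**Figure D2:**
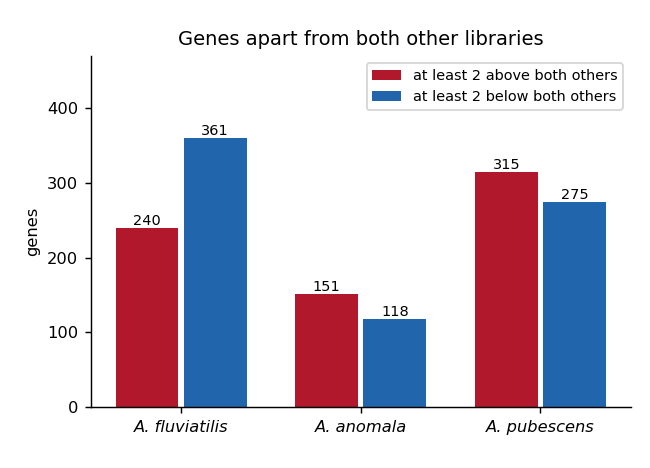
Number of genes (y axis) at least 2 log2 units above (red) or below (blue) both other libraries, for each of the 3 libraries. *A. fluviatilis* has 240 and 361, *A. anomala* 151 and 118, and *A. pubescens* 315 and 275.

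Most of the genes set apart lay close to the limit of the rule. The median of the smaller distance was 2.37 log2 units among the higher genes and −2.51 among the lower ones. At least 3 units separated 44 of the 240 higher genes (18.3%) and 94 of the 361 lower genes (26%) from both congeners. Within 0.1 unit of the limit lay 44 higher genes inside and 39 outside it, and 51 lower genes inside and 49 outside. The higher gene nearest the limit from inside was at 6.84 FPKM in *A. fluviatilis*, against 0.96 in *A. anomala* and 0.88 in *A. pubescens*, and the nearest from outside was at 259, 64.0 and 33.6 FPKM in the same order of libraries. The lower gene just inside was at 22.9 FPKM in *A. fluviatilis*, against 97.0 in *A. anomala* and 94.8 in *A. pubescens*, and the one just outside at 6.6, 29.4 and 40.6 FPKM.

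The higher genes were at a median of 100.4 FPKM in *A. fluviatilis*, against 11.3 in *A. anomala* and 9.34 in *A. pubescens*. Together they made up 6.64% of all FPKM in *A. fluviatilis*, against 0.994% in *A. anomala* and 0.71% in *A. pubescens*. Levels of at least 1000 FPKM in *A. fluviatilis* were reached by 9 of them, up to 3825 FPKM. The lower genes were at a median of 3.45 FPKM in *A. fluviatilis*, against 40.6 in *A. anomala* and 40.8 in *A. pubescens*. Their share of all FPKM was 0.449% in *A. fluviatilis*, against 4.92% in *A. anomala* and 5.52% in *A. pubescens*, so each set amounted to several percent of the listed transcripts on its high side. These values chose the genes and are given as a description.

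The share of genes set apart differed with expression level. Among genes with a mean of 1 to 10 FPKM over the 3 libraries, 0.651% were higher and 0.73% lower in *A. fluviatilis*. The shares were 1.5% and 2.83% between 10 and 100 FPKM, and 5.35% and 4.83% between 100 and 1000 FPKM. Of 64 genes with a mean of at least 1000 FPKM, 1 was higher and 2 were lower. The pseudocount of 1 understates differences at low levels, so weakly expressed genes can meet the rule less readily. With a mean under 1 FPKM no gene can meet it. The mean also holds the values that the rule used, so a gene's own distance helps to place it in its class.

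**Figure D3:**
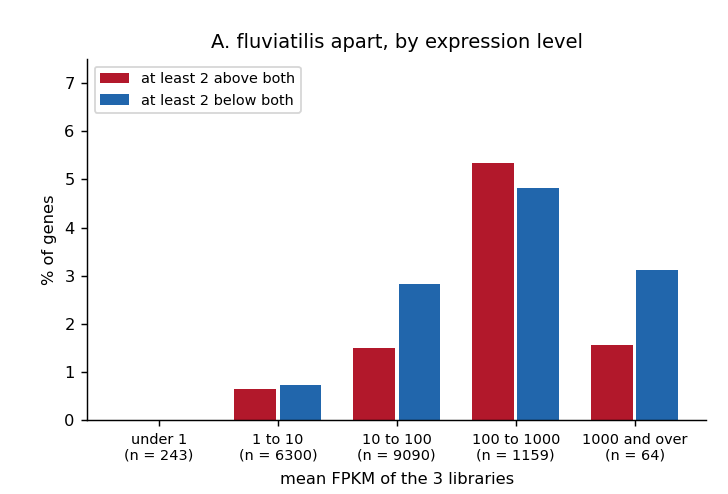
Percentage of genes (y axis) at least 2 log2 units above (red) or below (blue) both congeners in *A. fluviatilis*, in 5 classes of mean FPKM over the 3 libraries (x axis, with the number of genes). The class from 100 to 1000 FPKM has the tallest bars, at 5.35% and 4.83%.

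The most distant gene on the higher side was GRMZM2G178693, at 289 FPKM in *A. fluviatilis*, against 0.30 in *A. anomala* and 2.33 in *A. pubescens*. The level was 48.3 FPKM in *A. nepalensis*, 28.5 in *A. hirta* and 2.43 in *B. ischaemum*, and the gene was listed at 0 in *C. parviflorum* and *I. cylindrica*. *A. fluviatilis* therefore had the highest value of all 8 libraries for this gene. Next came GRMZM2G083016, at 1104 FPKM in *A. fluviatilis*, against 13.2 in *A. anomala* and 10.1 in *A. pubescens*. In the remaining libraries this gene was highest in *A. nepalensis*, at 174 FPKM, and at most 3.53 FPKM elsewhere. The files name neither gene.

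The most distant gene on the lower side was GRMZM2G074097, also without a name in the files, at 7.17 FPKM in *A. fluviatilis*, against 2531 in *A. anomala* and 2983 in *A. pubescens*. *A. nepalensis* had 3538 FPKM of it, *A. hirta* 191 and *B. ischaemum* 169, while *C. parviflorum* had 1.47 and *I. cylindrica* was at 0. The next was a carbonic anhydrase gene of the C4 lists, GRMZM2G094165. It was at 1.62 FPKM in *A. fluviatilis*, against 425 in *A. anomala* and 2458 in *A. pubescens*, and at 3952 FPKM in *A. nepalensis* and 568 in *C. parviflorum*. Only GRMZM2G074097 lay as far below both congeners among the 16856 genes.

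The C4 core list held 16 gene models, 15 of which were above 0 in all 3 libraries, and a further list of family members, Rubisco small subunit and Rubisco activase held 14, of which 12 were. Of these 27, 1 was at least 2 units above both congeners and 1 at least 2 units below both, against 1.42% and 2.14% of all genes. In *A. pubescens* 5 of the same 27 genes (18.5%) were set apart, beside 3.5% of all genes. In *A. anomala* it was 1 (3.7%), beside 1.6% of all genes. With so few genes these numbers say little about the lists as a whole. At a distance of 1 unit, 4 of the 15 core genes were above both congeners, where 6.67% of all genes and 17.8% of genes with a mean of at least 100 FPKM were above both. Higher than both by any amount were 9 of the 15 core genes, against 27.4% of all genes and 39.1% of those at 100 FPKM or more. With the highest model alone, the dikinase GRMZM2G097457 and DiT2 were no longer higher than both, and the PEP/phosphate translocator was. The lists were drawn up with earlier results of these data known, so these shares are a description only. The median difference of the 15 core genes was 0.53 log2 units from *A. anomala* and 1.02 from *A. pubescens*, beside medians of −0.22 and −0.15 over all genes and of −0.02 and 0.11 over the 1223 genes with a mean of at least 100 FPKM. Of the 15 core genes, 10 had such a mean.

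**Figure D4:**
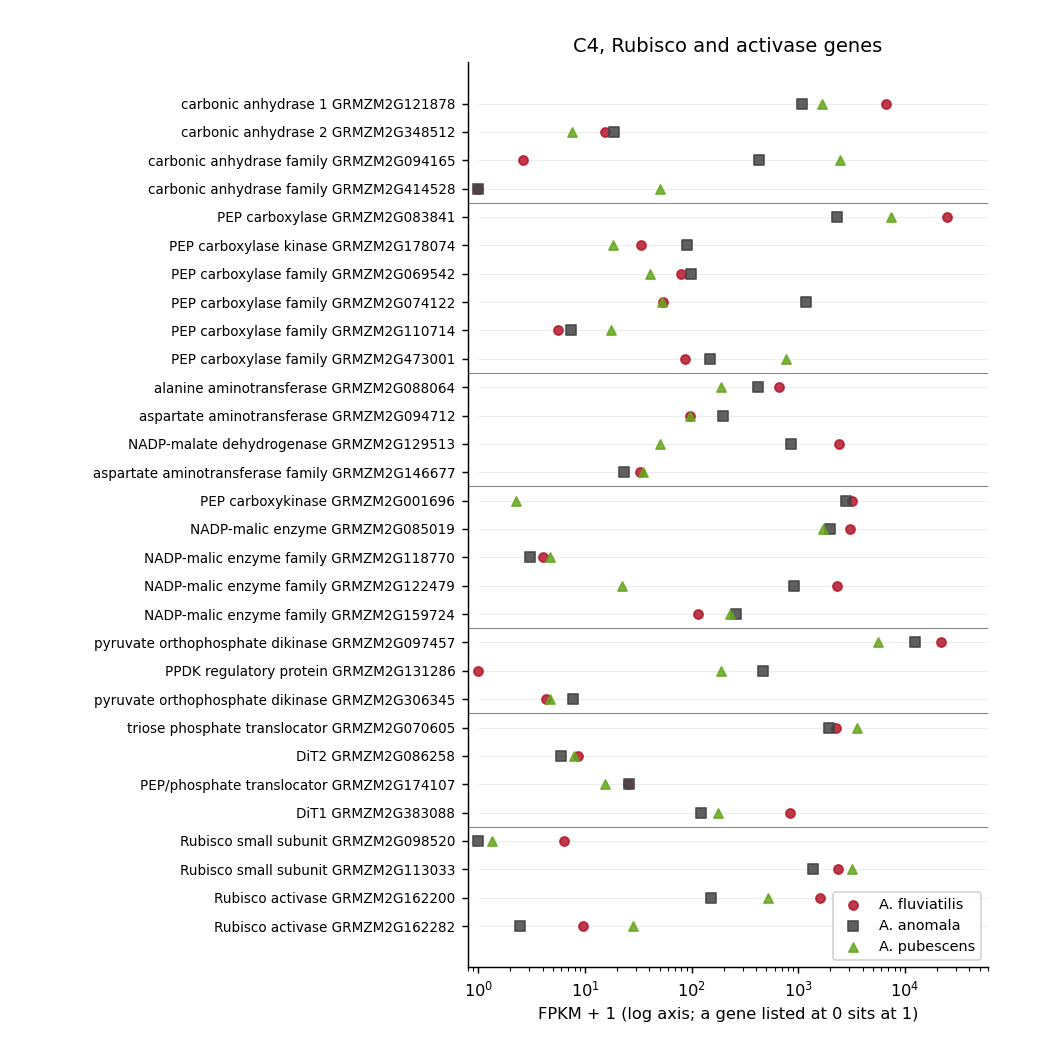
Level of 30 C4, Rubisco and activase genes (rows, grouped by role) as FPKM + 1 on a log axis in *A. fluviatilis* (red circles), *A. anomala* (dark squares) and *A. pubescens* (green triangles). PEP carboxylase GRMZM2G083841 reaches 24807 FPKM in *A. fluviatilis*, and the PPDK regulatory protein is listed at 0 there.

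Carbonic anhydrase supplies the bicarbonate that PEP carboxylase uses. Carbonic anhydrase 1 (GRMZM2G121878) was at 6685 FPKM in *A. fluviatilis*, against 1083 in *A. anomala* and 1684 in *A. pubescens*. Its level was 6.17 times that of *A. anomala* and 3.97 times that of *A. pubescens*, and its smaller distance of 1.99 log2 units placed it just outside the rule. It passed the limit with libraries scaled to the same sum (2.02), by the median of ratios (2.15) and by quantile normalization (2.24). In *A. fluviatilis* its fragments were divided over a pair of protein models, at 4400 and 2285 FPKM. With the highest model alone, the distance was 1.39.

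The family member GRMZM2G094165 ran the opposite way, with differences of −7.35 log2 units from *A. anomala* and −9.87 from *A. pubescens*. The values of carbonic anhydrase 1 and GRMZM2G094165 thus stood in opposite order between *A. fluviatilis* and *A. pubescens*, where GRMZM2G094165 was the more abundant at 2458 FPKM against 1684. Carbonic anhydrase 2 (GRMZM2G348512) was at 14.4 FPKM in *A. fluviatilis*, against 17.8 in *A. anomala* and 6.61 in *A. pubescens*. GRMZM2G414528 was listed at 0 in *A. fluviatilis* and *A. anomala* and was at 49.6 FPKM in *A. pubescens*. Summed over the 4 gene models, carbonic anhydrase was at 6701 FPKM in *A. fluviatilis*, against 1525 in *A. anomala* and 4198 in *A. pubescens*. The sum was 1.6 times that of *A. pubescens*, or 0.67 log2 units above it. This excess rested on adding both protein models of carbonic anhydrase 1. With each gene at its highest model the family sum was 4416 FPKM in *A. fluviatilis*, against 1074 in *A. anomala* and 4198 in *A. pubescens*, or 1.05 times the level of *A. pubescens*. Values on related models can be exchanged by the estimate that divides fragments among them, and this was not tested.

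PEP carboxylase makes the first fixation. Its C4 form (GRMZM2G083841) was at 24807 FPKM in *A. fluviatilis*, against 2285 in *A. anomala* and 7380 in *A. pubescens*, and it was the highest value of any gene in *A. fluviatilis*. It held 3.05% of all FPKM there, against 0.285% in *A. anomala* and 0.89% in *A. pubescens*. The distance from *A. anomala* was 3.44 log2 units and that from *A. pubescens* 1.75, so it passed the limit against *A. anomala* only. Against that library alone, 3 of the 15 core genes were at least 2 units higher, where 2.97% of all genes were, and 0 were lower by as much, where 4.75% were. Against *A. pubescens* alone, 3 were higher by as much and 0 lower, where 5.14% and 6.43% of all genes were. GRMZM2G074122 was at 52.7 FPKM in *A. fluviatilis*, against 1181 in *A. anomala* and 51.9 in *A. pubescens*, so *A. anomala* stood alone for this member. GRMZM2G473001 was at 84.8 FPKM in *A. fluviatilis*, against 148 in *A. anomala* and 765 in *A. pubescens*, and here *A. pubescens* stood alone.

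The family members GRMZM2G069542 (79.2 FPKM in *A. fluviatilis*, against 98.0 in *A. anomala* and 39.3 in *A. pubescens*) and GRMZM2G110714 (4.63, 6.34 and 16.5 FPKM in that order) were far below the C4 form in every one of these libraries. The 5 models together came to 25028 FPKM in *A. fluviatilis*, against 3719 in *A. anomala* and 8253 in *A. pubescens*, a difference of 2.75 and 1.60 log2 units. PEP carboxylase kinase (GRMZM2G178074), which phosphorylates and so activates the carboxylase, was at 32.3 FPKM in *A. fluviatilis*, against 89.7 in *A. anomala* and 17.4 in *A. pubescens*. The kinase thus lay between the congeners in the library where its substrate was highest.

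Malate and aspartate are the acids made next. NADP-malate dehydrogenase (GRMZM2G129513), which reduces oxaloacetate to malate in the chloroplast, was at 2410 FPKM in *A. fluviatilis*, against 852 in *A. anomala* and 49.3 in *A. pubescens*. The library of *A. pubescens* was the distant one, 5.58 log2 units below *A. fluviatilis*, while *A. anomala* was 1.5 below. Alanine aminotransferase (GRMZM2G088064), which interconverts pyruvate and alanine, was at 653 FPKM in *A. fluviatilis*, against 413 in *A. anomala* and 187 in *A. pubescens*. Aspartate aminotransferase (GRMZM2G094712) was at 96.0 FPKM in *A. fluviatilis*, against 195 in *A. anomala* and 96.1 in *A. pubescens*, and its family member GRMZM2G146677 at 31.6, 22.3 and 33.8 FPKM in that order. Neither aminotransferase of aspartate was set apart in any of the 3 libraries.

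The decarboxylating enzymes release CO2 beside Rubisco. The C4 NADP-malic enzyme (GRMZM2G085019) was at 3043 FPKM in *A. fluviatilis*, against 1985 in *A. anomala* and 1695 in *A. pubescens*, within 0.84 log2 units of both. In *A. fluviatilis* 2276 FPKM of it were on the first protein model and 767 on the next, whereas in *A. anomala* 172 were on the first and 1813 on the next, and in *A. pubescens* all were on the first. The sum over models therefore differed less than the models did. The family member GRMZM2G122479 was at 2280 FPKM in *A. fluviatilis*, against 915 in *A. anomala* and 21.3 in *A. pubescens*.

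PEP carboxykinase (GRMZM2G001696), the alternative decarboxylase, was at 3160 FPKM in *A. fluviatilis*, against 2772 in *A. anomala* and 1.25 in *A. pubescens*. NADP-malate dehydrogenase, GRMZM2G122479 and PEP carboxykinase thus had the same order, with *A. fluviatilis* highest, *A. anomala* within 1.5 log2 units of it and *A. pubescens* more than 5 units lower. In the place of *A. fluviatilis*, the rule set all 3 of these genes apart in *A. pubescens*. GRMZM2G159724, at 113 FPKM in *A. fluviatilis*, against 259 in *A. anomala* and 229 in *A. pubescens*, was lower than in both congeners, with differences of −1.19 and −1.02 log2 units. GRMZM2G118770 was at most 3.69 FPKM in these libraries.

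Pyruvate orthophosphate dikinase regenerates PEP from pyruvate. The abundant gene model (GRMZM2G097457), which the core list holds as a further model, was at 21851 FPKM in *A. fluviatilis*. It was at 12344 in *A. anomala* and 5580 in *A. pubescens*. This excess over *A. anomala* rested on the summing of protein models. In *A. fluviatilis* the gene was listed under 2 models, at 10505 and 11347 FPKM, and in *A. anomala* and *A. pubescens* nearly all of it was under the first, at 12342 and 5578 FPKM. With the highest model alone, the difference was −0.12 log2 units from *A. anomala* and 1.02 from *A. pubescens*. Whether both models stand for the same transcript was not tested. The dikinase model that the core list names first (GRMZM2G306345) was at 3.32 FPKM in *A. fluviatilis*, against 6.76 in *A. anomala* and 3.66 in *A. pubescens*. Whether the estimate exchanged values between these related gene models was not tested.

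The PPDK regulatory protein (GRMZM2G131286), which switches the dikinase on and off with light, was listed at 0 in *A. fluviatilis*, against 461 FPKM in *A. anomala* and 187 in *A. pubescens*. For that reason the gene is not among the 16856 compared. Of the other libraries it was at 585 FPKM in *A. hirta*, 114 in *B. ischaemum* and 78.1 in *A. nepalensis*, and listed at 0 in *C. parviflorum* and *I. cylindrica*. Whether an exact 0 stands for no transcript or for a failed estimate cannot be told here. The value is therefore given as a listing at 0 and no fold was computed.

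The chloroplast envelope transporters held the C4 gene that met the rule on the higher side. DiT1 (GRMZM2G383088), which exchanges 2-oxoglutarate and malate, was at 829 FPKM in *A. fluviatilis*, against 122 in *A. anomala* and 177 in *A. pubescens*. Its level was 6.78 times that of *A. anomala* and 4.68 times that of *A. pubescens*, or 2.75 and 2.22 log2 units, and 151 of the 16856 genes (0.896%) had a smaller distance at least as high. It was listed under 1 protein model, so the choice of model could not change its distance, and neither could the filters. Under the other pseudocounts and the scalings it met the rule, with smaller distances of 2.03 to 2.38 against both congeners. These alternatives rest on the same 3 libraries that the rule used. *A. nepalensis* had 8.64 FPKM of DiT1, and the other 4 libraries listed it at 0. Those libraries listed 47.9% to 61.6% of the 16856 genes at 0.

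DiT2 (GRMZM2G086258), the related dicarboxylate transporter, was at 7.59 FPKM in *A. fluviatilis*, against 4.95 in *A. anomala* and 6.84 in *A. pubescens*. For the PEP/phosphate translocator (GRMZM2G174107), which moves PEP across the envelope, the level was 24.3 FPKM in *A. fluviatilis*, against 24.8 in *A. anomala* and 14.5 in *A. pubescens*. The triose phosphate translocator (GRMZM2G070605), which exports sugar phosphates, was at 2241 FPKM in *A. fluviatilis*, against 1945 in *A. anomala* and 3538 in *A. pubescens*. These transporters lay within 0.71 log2 units of both congeners, unlike DiT1.

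Rubisco activase, which keeps Rubisco in its active state, differed more than Rubisco small subunit. Its model GRMZM2G162200 was at 1581 FPKM in *A. fluviatilis*, against 152 in *A. anomala* and 521 in *A. pubescens*, with differences of 3.37 and 1.60 log2 units. GRMZM2G162282 was at 8.57 FPKM in *A. fluviatilis*, against 1.48 in *A. anomala* and 27.4 in *A. pubescens*. The small subunit model GRMZM2G113033 lay between the congeners in *A. fluviatilis*. Its partner GRMZM2G098520 was at 5.31 FPKM in *A. fluviatilis*, against 0.35 in *A. pubescens* and a listing at 0 in *A. anomala*.

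As a sum, the 16 core genes made up 8.1% of all FPKM in *A. fluviatilis*, against 3.07% in *A. anomala* and 2.49% in *A. pubescens*. With only the highest protein model of each gene, the shares were 6.85% in *A. fluviatilis*, against 3.15% in *A. anomala* and 2.62% in *A. pubescens*. PEP carboxylase and the abundant dikinase model held most of the *A. fluviatilis* share, at 3.05% and 2.69% of all FPKM. In the libraries outside this comparison the core genes made up 8.02% of FPKM in *I. cylindrica*, 2.34% in *A. hirta*, 1.86% in *C. parviflorum*, 1.69% in *B. ischaemum* and 0.252% in *A. nepalensis*. These shares have unlike bases, since all FPKM came to 349576 in *I. cylindrica* and 813219 in *A. fluviatilis*. The core genes came to 28053 FPKM in *I. cylindrica*, against 65857 in *A. fluviatilis*. Several core genes were listed at 0 in libraries outside this comparison.

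The 5 libraries that the rule did not use were then read at the same 601 genes. *A. nepalensis* listed 17.9% of the higher genes and 15.8% of the lower genes at 0, beside 16.4% of all 16856 genes. The genes set apart were thus listed in it about as often as any other. In *A. hirta* the shares at 0 were 40.8% and 46%, beside 47.9% of all genes, and in *I. cylindrica* 55.4% and 46.5%, beside 48.2%. In *B. ischaemum* they were 51.7% and 55.1%, beside 55.0%, and in *C. parviflorum* 59.6% and 62.6%, beside 61.6%.

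For each gene above 0 in *A. nepalensis*, its level was placed either nearer to *A. fluviatilis* or nearer to the closer of its congeners. *A. nepalensis* was nearer to *A. fluviatilis* at 57 of 197 higher genes (28.9%) and at 68 of 304 lower genes (22.4%). For the genes set apart in *A. pubescens* by the same rule, *A. nepalensis* was nearer to *A. pubescens* at 33.9% of the higher and 39.9% of the lower genes, and for those of *A. anomala* it was nearer to that library at 35.2% and 29.3%. Each share sets 1 library against the closer of a pair, which favours the pair. The lower genes of *A. fluviatilis* made up 5.2% of all FPKM in *A. nepalensis*, near their shares in *A. anomala* and *A. pubescens* given above, and the higher genes 1.31%.

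In the other 4 libraries the outcome differed by direction. *A. hirta* was nearer to *A. fluviatilis* at 39 of 142 higher genes (27.5%) and at 131 of 195 lower genes (67.2%), *C. parviflorum* at 13.4% and 61.5%, *B. ischaemum* at 18.1% and 53.1% and *I. cylindrica* at 5.61% and 39.4%. These libraries also had low levels overall. Over all 16856 genes, the median level of genes above 0 was 5.25 FPKM in *A. hirta*, 4.05 in *C. parviflorum*, 4.8 in *B. ischaemum* and 7.66 in *I. cylindrica*, against 16.6 in *A. nepalensis* and 11.6 in *A. fluviatilis*. The part of this general level in the nearness at lower genes was not tested.

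**Figure D5:**
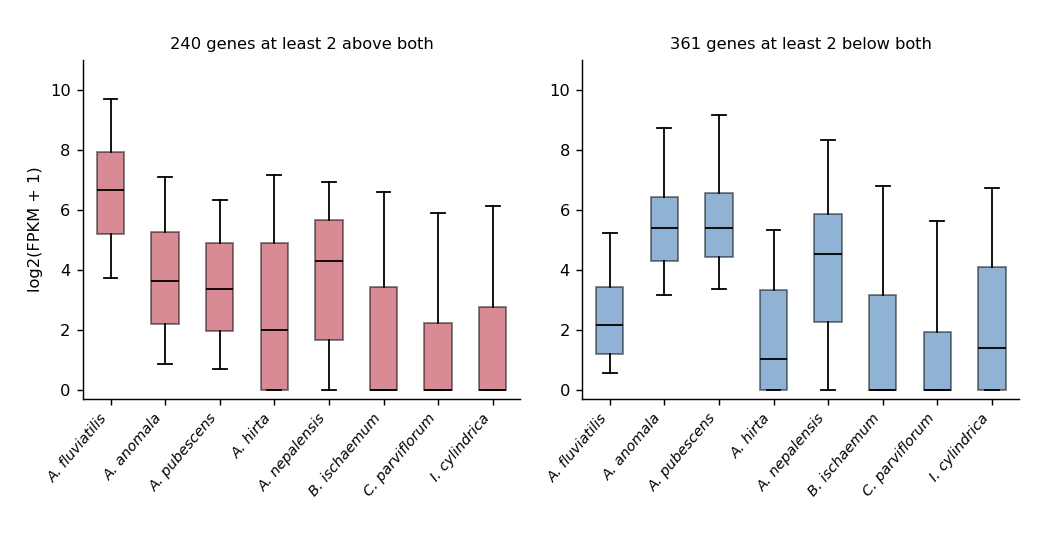
Level on log2(FPKM + 1) (y axis) of the 240 higher genes (left) and the 361 lower genes (right) in all 8 libraries (x axis), with the median, the quartiles as a box and the 5th and 95th percentiles as whiskers. The first 3 libraries chose the genes, and among the others *A. nepalensis* has the highest medians, at 18.7 FPKM for the higher and 21.9 for the lower genes.

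Several protein models were listed for 83 of the 240 higher genes (34.6%) and 150 of the 361 lower genes (41.6%), beside 36% of all genes compared. With only the highest model, 229 of the 240 and 335 of the 361 were still set apart in the same direction. Genes with a single model could not change here, so all that dropped out were among the 83 higher and 150 lower genes with several models. Of the genes with several models, 7 of the 83 higher and 7 of the 150 lower had every model past the limit by itself. A model at least 2 units the opposite way was found in 2 higher and 6 lower genes. These model counts were not made for all genes with several models, so they have no background to be set against. A model listed without signal in any of the compared libraries cannot pass the limit by itself. The lower gene GRMZM2G094165 had such a model. The counts of genes with every model past the limit therefore do not measure how far models agree. Names in the form of a clone accession in place of a maize gene model were carried by 5 higher genes (2.08%) and 11 lower genes (3.05%). Among all genes compared the share was 2.75%, so such names were about as frequent in both sets as elsewhere.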

How the data were processed

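Leaf RNA of 8 grass species was sequenced, 1 library each. The authors deposited FPKM values in 1 table of 36698 lines under maize protein models. RSEM was used, per the submitters' processing notes; no version, aligner or target sequence is given in the sources used here. A further deposited file pairs identifiers only and covers 96.8% of the lines. No reference genome or gene names were used, so no sequences are shown.

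Protein models were summed per gene, and log2(FPKM + 1) was compared over genes above 0 in the 3 libraries with Python 3.11.15, pandas 2.3.3, numpy 2.4.6 and matplotlib 3.10.9. The counting code was run on simulated data with planted shifts larger than the limit. That run checks the code only and says nothing about how reliable the genes set apart are. No test across genes was run, since each species has 1 library. Depth is unknown, so no counting interval is given.

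Named genes are the 30 models of the C4 lists and the 2 most distant genes in each direction with at least 10 FPKM on the high side. The genes, lists and alternatives were chosen with earlier results of these data known. Alternatives were other pseudocounts, filters, scalings, distances and models, each congener alone, and, chosen after seeing the data, enzyme families summed over all or only the highest protein models and medians of genes with a mean of at least 100 FPKM.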

Additional observations from a re-analysis of the deposited data

How the results depend on the processing

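The count of genes set apart in *A. fluviatilis* moved with the limit and the pseudocount. At a distance of 1 log2 unit there were 1125 higher and 1701 lower genes, and at 3 units 44 and 94. A pseudocount of 0.1 gave 310 higher and 580 lower genes and one of 10 gave 106 and 88. Without the demand for values above 0 in all 3 libraries the counts were 672 and 751. Against *A. anomala* only they were 500 and 801, and against *A. pubescens* only 866 and 1083. Under the stricter filters, the scalings and the highest model, the counts ranged from 199 to 336 higher and from 273 to 381 lower. The higher genes were 39.9% of all set apart as deposited, 55.2% under the median of ratios, 50.1% under quantile normalization and 54.6% with a pseudocount of 10. They were 38.9% with the same sum per library, 40.7% with the highest model and 34.8% with a pseudocount of 0.1. Among genes of at least 1 FPKM in all 3 libraries they were 41.7%, and with a mean of at least 10 FPKM 38.7%. Of 331 values of C4 genes under the alternatives, 318 kept their side of the 2-unit limits. These values count each family sum again for every member, and a gene far from the limits had little room to change side. In 11 of them a gene passed a limit, either carbonic anhydrase 1 under a scaling or a gene set against a single congener. Carbonic anhydrase GRMZM2G094165 changed sign with its family summed (0.67, or 0.073 with each gene at its highest model), a sum that also holds carbonic anhydrase 1. No paired analysis was possible because each species has 1 library.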

Other observations

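Genes at 0 in some of the 3 libraries stand outside the comparison. Above 0 in *A. fluviatilis* and listed at 0 in both congeners were 1056 genes, of which 139 had at least 10 FPKM and 16 at least 100 FPKM, up to 1269 FPKM. Listed at 0 in *A. fluviatilis* and above 0 in both congeners were 1115 genes, of which 168 had at least 10 FPKM and 14 at least 100 FPKM in each congener. The PPDK regulatory protein is 1 of these. The same counts were 1561 and 1401 genes for *A. pubescens* and 1096 and 1075 for *A. anomala*. With at least 10 FPKM they were 251 and 259 for *A. pubescens* and 186 and 165 for *A. anomala*. With at least 100 FPKM they were 23 and 29 for *A. pubescens* and 15 and 9 for *A. anomala*. All these counts are out of 26274 genes.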
